A study of Mus musculus with 16 samples.

Results

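Acyl-CoA synthetases activate fatty acids (FAs) by joining them to coenzyme A, and 10 genes of this enzyme superfamily were followed here through all treatments of the study. The members were taken by symbol from the count table, which lists 20295 genes: Acsl1, Acsl3, Acsl4, Acsl5, Acsl6, Acsbg1, Acss1, Acss2, Acss3 and Acsf2. All 10 had a row, and 8 of the 10 passed the filter on low counts that left 12786 genes for testing; Acsl6 and Acss1 did not pass it. The set was put together as long-chain acyl-CoA synthetases inhibited by triacsin C. The products of the 5 ACSL genes activate long-chain FAs, and inhibition of each of them by triacsin C was not measured here; Acsbg1 encodes a long- and very-long-chain synthetase of the bubblegum type, Acsf2 a mitochondrial medium-chain synthetase, and the 3 ACSS genes encode synthetases of acetate or propionate, so the members are called acyl-CoA synthetases below.

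The study asked which transcriptional effects of lipolysis in brown adipocytes need the released FAs to be activated or to enter mitochondria. The cells were wild-type (WT) mouse brown preadipocytes of 1 line, made immortal with SV40 large T antigen and differentiated in culture to day 7. They received an inhibitor or the solvent DMSO for 1 h and were then kept for 3 h with or without SR-3420, a ligand of ABHD5 that releases this coactivator to switch on the lipase ATGL without a β-adrenergic signal. RNA was sequenced from 16 samples, and the total counts per sample ran from 9452861 to 25670624 (median 13602886). The totals were 14032494 and 10097582 for vehicle replicates 2 and 3 and 19156037 and 15667121 for SR-3420 replicates 1 and 3. For replicates 1, 2 and 3 they were 9452861, 15818919 and 13164376 with triacsin C and 16265789, 12043744 and 10659704 with triacsin C and SR-3420. With etomoxir they were 14993463, 11813662 and 10993504, and with etomoxir and SR-3420 25670624, 13173278 and 16512525.

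The groups were vehicle (DMSO alone; 2 samples), SR-3420 (10 µM; 2 samples), triacsin C (TC, 5 µM, spelled "Triascin C" in the labels; 3 samples), TC with SR-3420 at the same doses (3 samples), etomoxir (ETO, 50 µM; 3 samples) and ETO with SR-3420 (3 samples). The SR-3420 dose is that of the labels; the study's own text gives a higher one. Vehicle replicate 1 and SR-3420 replicate 2 were not analysed here. The study describes its samples as biologically independent experiments in this 1 cell line. Its methods give 3 independent experiments as the source of the RNA-seq data, and the replicate numbers may stand for these. The labels give replicate numbers and do not say whether samples with the same number in different groups were handled together, so the numbers were not used as pairs, and a fit with the number as a block was run as an alternative.

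An FA freed from a lipid droplet can leave the cell or act unesterified, and a synthetase has to turn it into an acyl-CoA before it goes back into glycerolipids or, through carnitine, into mitochondria for β-oxidation. ACSL1 is the main long-chain synthetase of adipocytes; ACSL3 sits on the endoplasmic reticulum and on growing lipid droplets, ACSL4 prefers arachidonate and other polyunsaturated FAs, ACSL5 is found on mitochondria and the endoplasmic reticulum, and ACSL6 is best known from brain. Triacsin C is a fungal inhibitor that competes with the FA in the active site of ACSL enzymes, whose isoforms are not all equally sensitive to it, whereas etomoxir inactivates CPT1, the enzyme that passes acyl groups to carnitine for entry into mitochondria. ACSS2 makes acetyl-CoA from acetate in the cytosol and nucleus, ACSS1 does so in mitochondria, and ACSS3 is a mitochondrial propionyl-CoA synthetase.

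The cell type was checked against 10 brown adipocyte markers. Fabp4, the most abundant of them, lay between 3026 and 9223 CPM (read counts relative to library size, which was scaled by TMM factors), and Adipoq and Plin1 were also abundant, at medians of 2220 and 1170 CPM. Ucp1, the uncoupling protein that defines brown fat, had 5 to 57 counts per sample and at most 3.66 CPM, and Dio2 had 0 to 2 counts. Pparg lay between 110 and 349 CPM and Ppargc1a between 22.25 and 85.75 CPM. Prdm16 lay between 5.99 and 40.1 CPM, Cidea between 8.29 and 35.3 CPM and Elovl3 between 7.84 and 18.4 CPM. The cells were thus adipocytes by their markers. Ucp1 and Dio2 were low in all 6 groups, while the other brown adipocyte markers were detected in every sample.

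Levels of different genes are compared per length, as CPM per kilobase of counted transcript. Averaged over the 16 samples, Acsl1 was highest at 245 CPM per kilobase, followed by Acss2 at 113. Acsl4 (20.9), Acsl5 (17.0), Acsl3 (14.5) and Acsf2 (9.35) came next on the same scale, and then Acss3 (6.84) and Acsbg1 (3.64). The level of Acsl1 exceeded that of Acss2 in 16 of 16 samples, although both were close to 156 CPM per kilobase in TC replicate 2. The ranges of Acsl4 (8.94 to 48.3 CPM per kilobase), Acsl5 (11.02 to 20.4) and Acsl3 (5.81 to 24.6) overlapped, so their order is not larger than the spread between samples. The order below Acss2 also depended on the group. With vehicle the mean levels in CPM per kilobase were 18.2 for Acsl5, 14.7 for Acsl3 and 14.4 for Acsl4, and 12.7 for Acss3 and 11.6 for Acsf2, of which the nearest samples were at 12.5 and 12.4. These orders with vehicle also depend on the length used. Acsl4 has a counted length of 4990 bases and a coding length of 2133, and Acsl5 of 3151 and 2049. Per coding length Acsl4 comes above Acsl5 and Acsl3 with vehicle, and Acsf2 above Acss3. Acsbg1 was above Acss3 with TC and SR-3420 (6.46 against 2.75 CPM per kilobase, in samples that did not overlap), and with ETO and SR-3420 (4.84 against 3.71), where the samples overlapped. Acsl6 and Acss1 stood at the bottom with 0 to 15 and 0 to 9 counts per sample, and TC replicate 1 held 0 counts of either, which in its 9452861 counts allows a level of up to 0.317 CPM (3 counts). This limit covers counting error only.

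**Figure D1:**
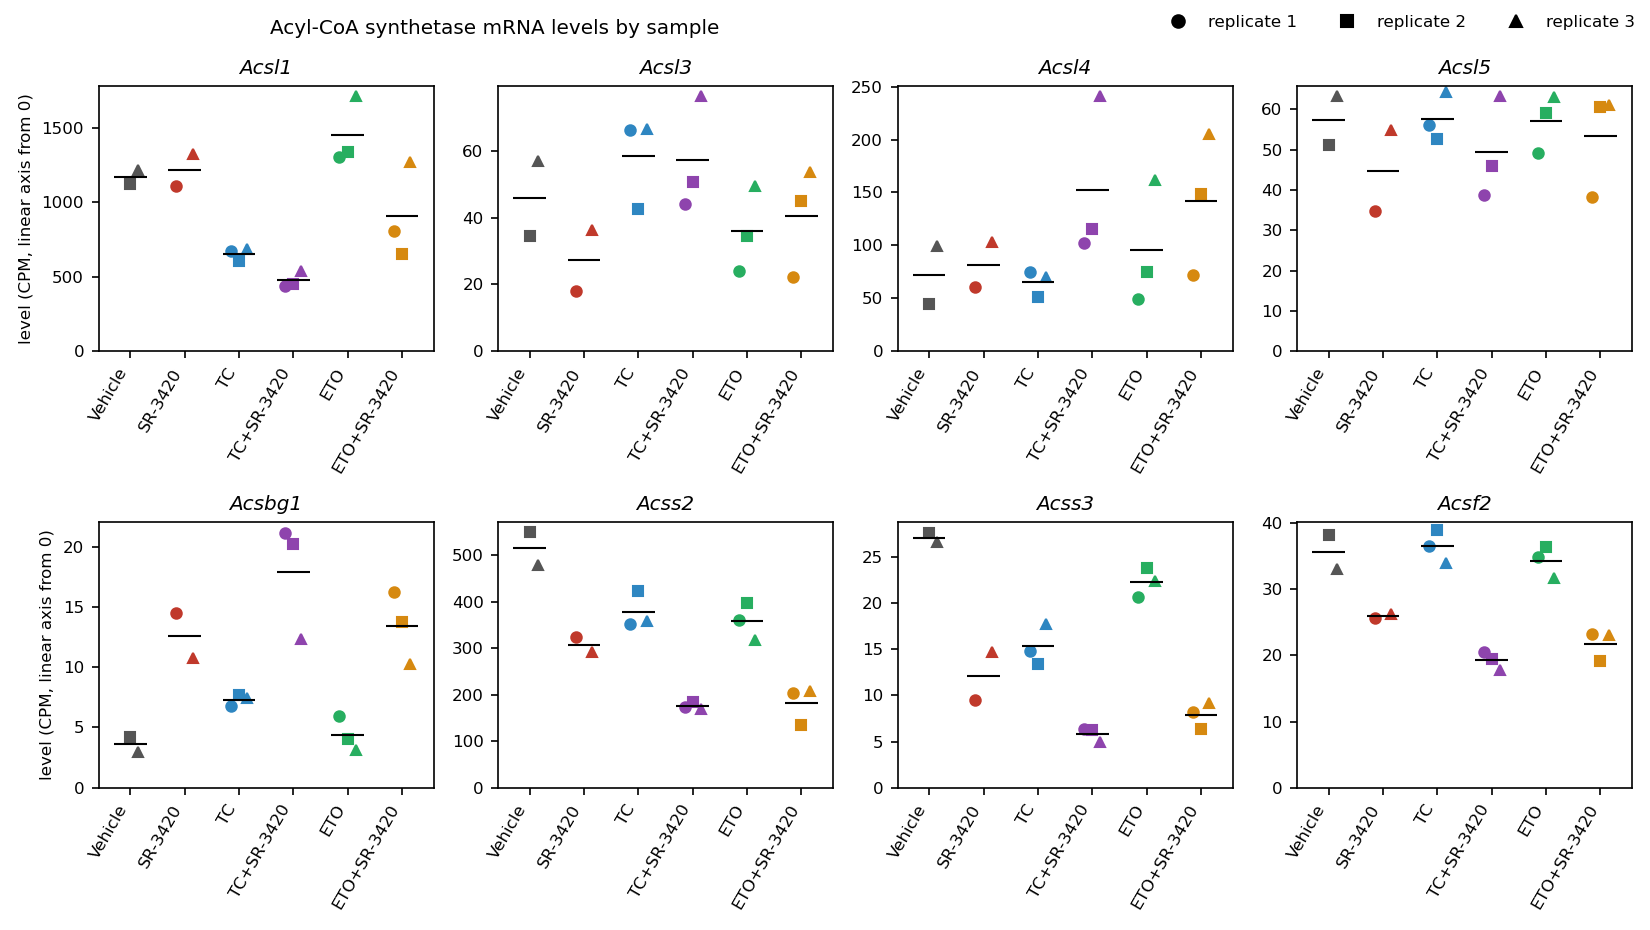
Level of each of the 8 tested acyl-CoA synthetases in the 16 samples, in CPM on a linear axis that starts at 0; each point is 1 sample, its shape gives the replicate number and the horizontal lines are group means. Acsl1 lies between 438 and 684 CPM in the 6 samples with triacsin C, and Acss2, Acss3 and Acsf2 are lower and Acsbg1 is higher in the samples with SR-3420 than in their counterparts without it.

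In mm9 coordinates Acsl1 spans chr8:47556396-47621404 on the plus strand (21 exons in its longest coding transcript), Acss2 chr2:155343779-155388479 on the plus strand (19 exons), Acsbg1 chr9:54452804-54509692 on the minus strand (14 exons), Acss3 chr10:106373220-106560720 on the minus strand (16 exons) and Acsf2 chr11:94418416-94463100 on the minus strand (16 exons). Acsl4 is on the X chromosome at chrX:138752536-138825078 on the minus strand. Acsl3, at chr1:78654400-78704318, starts at the same base as Utp14b and runs on the same strand, and the counts listed for Utp14b were 38.5% to 51.9% of those listed for Acsl3 in the same sample. Reads of these genes cannot be told apart where they overlap, so the values of Acsl3 are uncertain. Acsf2 overlaps Chad on the opposite strand; the strand setting of the counting is not given in the sources used here, and the 10 to 32 counts of Chad per sample were 4.20% to 7.93% of those of Acsf2.

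RefSeq promoter entries (GRCm38.p6) matched 9 of the 10 members, with none for Acss3. The 250 bases before the start are shown for Acsl1 (both starts), Acss2, Acsbg1 and Acsf2, chosen after their expression values were seen. Both strands were searched for 4 motifs and matches are in capitals: TCACNCCAC, a core of the sterol response element bound by SREBP factors (present in 1.05% of 32851 promoters of this length), AGGTCA, the core recognised by PPAR and other nuclear receptors (14%), the GC box GGGCGG (32.7%) and the CCAAT box (33.8%).
Acsl1, upstream start: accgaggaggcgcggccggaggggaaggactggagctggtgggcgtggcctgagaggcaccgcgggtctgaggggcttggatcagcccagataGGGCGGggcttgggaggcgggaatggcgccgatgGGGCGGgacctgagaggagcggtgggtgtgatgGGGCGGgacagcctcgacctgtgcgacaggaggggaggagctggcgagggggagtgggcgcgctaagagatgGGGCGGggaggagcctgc
Acsl1, downstream start: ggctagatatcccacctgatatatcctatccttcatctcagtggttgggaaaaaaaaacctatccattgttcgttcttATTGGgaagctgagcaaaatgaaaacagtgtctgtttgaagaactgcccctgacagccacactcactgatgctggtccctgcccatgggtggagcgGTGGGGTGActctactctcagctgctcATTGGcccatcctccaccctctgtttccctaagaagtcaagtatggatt
Acss2: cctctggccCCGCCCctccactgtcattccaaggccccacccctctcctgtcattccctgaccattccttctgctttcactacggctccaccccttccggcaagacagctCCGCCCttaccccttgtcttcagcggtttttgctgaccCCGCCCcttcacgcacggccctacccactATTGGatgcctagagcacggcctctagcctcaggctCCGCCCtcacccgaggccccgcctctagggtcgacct
Acsbg1: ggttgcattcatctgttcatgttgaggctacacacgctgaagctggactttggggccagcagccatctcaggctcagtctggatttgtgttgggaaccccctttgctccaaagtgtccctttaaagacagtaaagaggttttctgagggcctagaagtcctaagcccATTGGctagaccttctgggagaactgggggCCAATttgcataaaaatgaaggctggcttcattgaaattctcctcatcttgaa
Acsf2: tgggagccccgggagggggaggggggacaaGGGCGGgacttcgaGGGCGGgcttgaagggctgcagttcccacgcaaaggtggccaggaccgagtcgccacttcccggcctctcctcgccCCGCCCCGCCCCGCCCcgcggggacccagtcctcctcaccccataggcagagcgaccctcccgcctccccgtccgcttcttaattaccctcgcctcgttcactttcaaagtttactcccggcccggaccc
The upstream Acsl1 window, chr8:46470787-46471036 on the plus strand, holds 4 GC boxes. The downstream Acsl1 window, chr8:46490716-46490965 on the plus strand, holds 1 TCACNCCAC match, 76 bases before the start, and 2 CCAAT boxes. The Acss2 window, chr2:155517793-155518042 on the plus strand, holds 4 GC boxes and 1 CCAAT box; the Acsf2 window, chr11:94601787-94602036 on the minus strand, holds 5 GC boxes. The Acsbg1 window, chr9:54661886-54662135 on the minus strand, holds 2 CCAAT boxes and no GC box. A match of letters is a description of the window; binding was not measured.

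Inhibition of acyl-CoA synthesis was examined first, by comparing TC with vehicle. Acsl1 was at 1120 and 1219 CPM in the vehicle replicates 2 and 3, and at 672, 607 and 684 CPM in TC replicates 1, 2 and 3. Every TC sample lay below both vehicle samples. Acsl1 fell by 0.84 on the log2 scale (SE 0.23), a 1.79-fold decrease, with an adjusted p of 0.0294 (edgeR quasi-likelihood test, Benjamini-Hochberg adjustment over 12786 genes, used for all adjusted p-values that follow). Acss3 was at 27.6 and 26.7 CPM with vehicle and at 14.8, 13.5 and 17.8 CPM with TC. The groups did not overlap for Acss3 either, and it fell by 0.82 on the log2 scale (SE 0.21, adjusted p = 0.0195 by edgeR). These were the 2 members called among the 8 tested, both lowered and none raised, where 6.94% of all genes tested were lowered and 4.77% raised.

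The other members were not called for TC. Acsbg1 had 4.24 and 2.95 CPM with vehicle and 6.77, 7.66 and 7.43 CPM with TC. All 3 TC samples were above both vehicle samples, but the log2FC of 1.01 (95% interval 0.30 to 1.72) had an adjusted p of 0.064 with edgeR. DESeq2 gave 0.0355, edgeR with a replicate block 0.0087 and edgeR on the compared groups alone 0.0471. Acss2 had a log2FC of −0.45 (95% interval −0.82 to −0.07), and its TC samples, at 351 to 423 CPM, were below the vehicle samples at 480 and 549 CPM. Its adjusted p by edgeR was 0.128, and 0.0429 with the plain library size (log2FC −0.52). Acsl3, Acsl4, Acsl5 and Acsf2 had overlapping groups, with log2FC of 0.35 (95% interval −0.57 to 1.27), −0.14 (−1.33 to 1.05), 0.01 (−0.55 to 0.57) and 0.03 (−0.26 to 0.33). The signs for Acsl5 and Acsf2 turned when the plain library size was used.

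The call of Acsl1 for TC was lost whichever 1 of the 5 samples was left out, with adjusted p-values by edgeR of 0.0909 and 0.182 without vehicle replicate 2 or 3 (log2FC −0.90 and −0.78) and 0.0727, 0.0974 and 0.0685 without TC replicate 1, 2 or 3 (−0.86, −0.78 and −0.87). The call of Acss3 was lost without vehicle replicate 2 or 3 (0.103 and 0.097, log2FC −0.80 and −0.85) and without TC replicate 1 or 2 (0.0647 and 0.0804, log2FC −0.80 and −0.73). Calls among all genes went from 1497 to between 702 and 1089 over these fits. A sample left alone in its group is assumed in such fits to vary like the other groups.

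Etomoxir, which acts after the synthetases, was compared with vehicle in the same way. Acsl1 was at 1305, 1340 and 1718 CPM with ETO. These values were above both vehicle samples, but the log2FC of 0.32 (95% interval −0.19 to 0.82) was not called. Acss2, with 360, 396 and 318 CPM, was below both vehicle samples, and its log2FC of −0.52 (95% interval −0.90 to −0.15) had an unadjusted p of 0.0101 and an adjusted p of 1 in edgeR's quasi-likelihood test. For Acss3 the log2FC was −0.28 (95% interval −0.73 to 0.17). No member was called: 0 of 8 with edgeR, 0 with DESeq2 and 1, Acss2, at an unadjusted p under 0.05, while 0.0156% of all genes were raised and 0.00782% lowered.

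**Figure D2:**
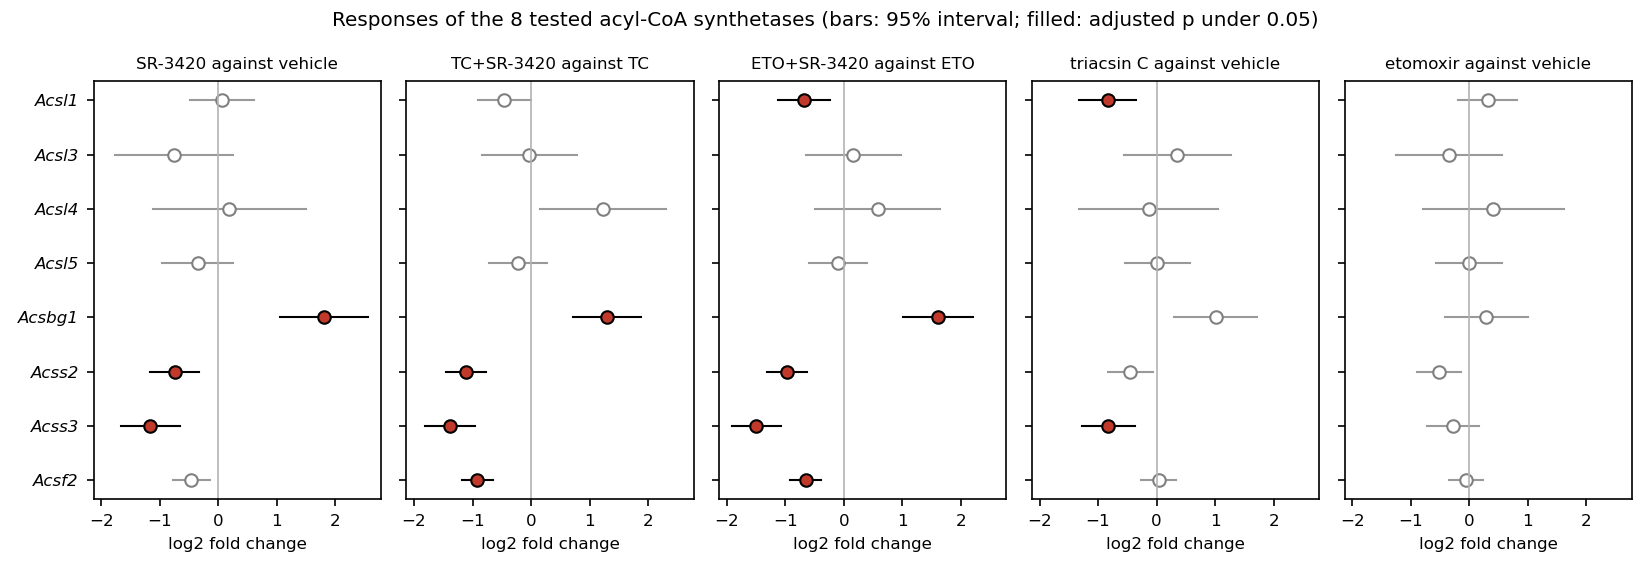
Log2 fold changes of the 8 tested members in 5 comparisons, named above the panels; points are edgeR estimates, bars are 95% intervals, and filled points have an adjusted p under 0.05. Acsbg1 lies to the right of 0 and Acss2 and Acss3 to the left in all 3 comparisons with SR-3420, and Acsl1 is called for triacsin C and for SR-3420 in the presence of etomoxir.

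Lipolysis without an inhibitor was examined by comparing SR-3420 with vehicle. Acsbg1 was at 14.5 and 10.8 CPM in SR-3420 replicates 1 and 3, against 4.24 and 2.95 CPM with vehicle. Both treated samples were above both controls, and Acsbg1 rose 3.49-fold (log2FC 1.80, SE 0.35, adjusted p = 0.00724 by edgeR). Acss3 was at 9.55 and 14.7 CPM with SR-3420, below the vehicle values of 27.6 and 26.7 CPM. It fell by 1.16 on the log2 scale (SE 0.23, adjusted p = 0.00875 by edgeR). Acss2 was at 324 and 291 CPM with SR-3420 and at 549 and 480 CPM with vehicle. It fell by 0.74 on the log2 scale (SE 0.19, adjusted p = 0.0347 by edgeR), again with groups that did not overlap.

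In this comparison 1 of 8 members was raised and 2 of 8 were lowered, where 4.75% and 2.79% of all genes were. Acsl1, at 1111 and 1324 CPM with SR-3420, overlapped the vehicle samples, and its log2FC of 0.06 (95% interval −0.49 to 0.61) became −0.05 with the plain library size. Acsf2 had 25.6 and 26.3 CPM with SR-3420 and 38.2 and 33.1 CPM with vehicle; its log2FC of −0.46 (95% interval −0.78 to −0.14) missed the threshold with edgeR (adjusted p = 0.0843) and passed it with DESeq2 (0.0174), and in edgeR with the plain library size (0.0267) or a replicate block (0.038). Scaling by the plain library size moved the median log2FC of all genes by −0.11 here, and by 0.13 in the difference of SR-3420 responses between TC and no inhibitor. Acsl3, Acsl4 and Acsl5 had overlapping groups, with log2FC of −0.75 (95% interval −1.76 to 0.25), 0.19 (−1.11 to 1.49) and −0.35 (−0.96 to 0.26).

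With 2 samples a group these calls were fragile. That of Acsbg1 was lost without vehicle replicate 3 (log2FC 1.58, adjusted p = 0.0872 by edgeR) or SR-3420 replicate 1 (1.58, 0.0639), and that of Acss3 without vehicle replicate 2 (−1.14, 0.0602), vehicle replicate 3 (−1.18, 0.0513) or SR-3420 replicate 1 (−0.88, 0.101). The call of Acss2 was lost without vehicle replicate 2 (−0.64, 0.173), vehicle replicate 3 (−0.83, 0.0918), SR-3420 replicate 1 (−0.82, 0.118) or SR-3420 replicate 3 (−0.67, 0.153). A fit to these 4 samples alone called none of the 3 members (adjusted p = 0.114, 0.222 and 0.179 for Acsbg1, Acss2 and Acss3), although their log2FC stayed at 1.78, −0.77 and −1.19. Calls among all genes fell as well, from 964 to between 306 and 504 with 1 sample left out and to 46 in these 4 samples alone.

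The same ligand was then examined with acyl-CoA synthesis inhibited, by comparing TC with SR-3420 against TC alone. Acsf2 was at 36.6, 39.0 and 33.9 CPM with TC and at 20.5, 19.5 and 17.8 CPM with TC and SR-3420. All 3 samples with the ligand were below all 3 without it, and Acsf2 fell by 0.92 on the log2 scale (SE 0.12, adjusted p = 9.93e-05 by edgeR). Acss2 was at 351, 423 and 358 CPM with TC and at 173, 183 and 168 CPM with TC and SR-3420. It fell by 1.11 on the log2 scale (SE 0.16), a 2.16-fold decrease, with an adjusted p of 0.000159 by edgeR. Acss3 was at 6.34, 6.24 and 4.97 CPM after TC and SR-3420, below the 13.5 to 17.8 CPM of TC alone. It fell by 1.39 on the log2 scale (SE 0.20, adjusted p = 0.000147 by edgeR). Acsbg1 was at 21.1, 20.2 and 12.4 CPM, above the 6.77 to 7.66 CPM of TC alone. It rose 2.46-fold (log2FC 1.30, SE 0.27, adjusted p = 0.00236 by edgeR).

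Thus 1 of 8 members was raised and 3 of 8 were lowered, in a comparison in which 17.3% of all genes were raised and 19.7% lowered, and 8 members are too few to tell their share from these. All 4 calls held whichever sample of these groups was left out. Acsl1, at 438, 454 and 538 CPM with TC and SR-3420, lay below the 607 to 684 CPM of TC alone, but its log2FC of −0.46 (95% interval −0.90 to −0.01) was not called (adjusted p = 0.101 by edgeR). It was called with a replicate block (log2FC −0.46, adjusted p = 0.0105 by edgeR) and in a fit to these 6 samples alone (−0.45, 0.0167). Acsl4 was at 102, 115 and 241 CPM, above the 50.9 to 75.0 CPM of TC alone. Its log2FC of 1.23 (95% interval 0.15 to 2.30) had an adjusted p of 0.0704 with edgeR and 0.0463 with DESeq2, and in edgeR of 0.00362 with a replicate block and 0.0153 in a fit to these 6 samples. Replicate 3 of TC with SR-3420 had more than 2 times the Acsl4 level of the other 2 samples.

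With mitochondrial entry inhibited, ETO with SR-3420 was compared against ETO alone. Acsl1 was at 1305, 1340 and 1718 CPM with ETO and at 805, 653 and 1272 CPM with ETO and SR-3420. Every sample with the ligand was below every sample without it, the closest being 1272 and 1305 CPM, and Acsl1 fell by 0.68 on the log2 scale (SE 0.21, adjusted p = 0.0301 by edgeR). Acss3 was at 20.7, 23.8 and 22.5 CPM with ETO and at 8.19, 6.35 and 9.19 CPM with ETO and SR-3420. It fell by 1.49 on the log2 scale (SE 0.19, adjusted p = 0.000149 by edgeR), the largest fitted decrease of a tested member in the 10 comparisons. Acss2 was at 203, 135 and 208 CPM with ETO and SR-3420, against 318 to 396 CPM with ETO. It fell by 0.98 on the log2 scale (SE 0.16, adjusted p = 0.000723 by edgeR).

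Acsf2 was at 34.9, 36.5 and 31.7 CPM with ETO and at 23.2, 19.1 and 23.0 CPM with ETO and SR-3420. It fell by 0.65 on the log2 scale (SE 0.12, adjusted p = 0.00189 by edgeR), with no overlap of the groups. Acsbg1 was at 5.99, 4.03 and 3.15 CPM with ETO and at 16.3, 13.7 and 10.2 CPM with ETO and SR-3420. It rose 3.04-fold (log2FC 1.60, SE 0.28, adjusted p = 0.00112 by edgeR). In all 1 of 8 members was raised and 4 of 8 were lowered, beside 12.5% and 12.8% of all genes. The calls of Acsbg1, Acss2, Acss3 and Acsf2 held whichever sample was left out. That of Acsl1 was lost without ETO replicate 2 or 3 (adjusted p = 0.0519 and 0.092 by edgeR, log2FC −0.73 and −0.54), without ETO with SR-3420 replicate 1 or 2 (0.085 and 0.126, log2FC −0.60 and −0.49), and in a fit to these 6 samples alone (0.158, log2FC −0.70).

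Whether an inhibitor changed the response to SR-3420 was tested as a difference of differences. None of the 8 members was called for TC against no inhibitor (0 with edgeR and 0 with DESeq2, 1 at an unadjusted p under 0.05, Acsf2), where 2.51% of all genes were. For ETO against no inhibitor 0 were called by either tool, with 1, Acsl1, at an unadjusted p under 0.05, and 0% of all genes. For TC against ETO 0 were called by either tool and 0 had an unadjusted p under 0.05, beside 2.29% of all genes. These shares depend on the model, as a replicate block took the calls among all genes from 321 to 1669 for TC against no inhibitor, from 0 to 3 for ETO against no inhibitor and from 293 to 1055 for TC against ETO, and DESeq2 gave 809, 9 and 656; neither called a member. For Acsl1 the response with ETO differed from that without an inhibitor by −0.73 (95% interval −1.44 to −0.03, adjusted p = 0.988 by edgeR) on the log2 scale, and with TC by −0.52 (95% interval −1.22 to 0.19). The call of Acsl1 in the presence of ETO is therefore not shown to differ from its response in the other arms. For Acsf2 the response with TC differed from that without an inhibitor by −0.46 (95% interval −0.88 to −0.04, adjusted p = 0.243 by edgeR), and with ETO by −0.20 (95% interval −0.61 to 0.22), so the calls of Acsf2 with either inhibitor are not shown to differ from the response without one. For Acss2 the response with TC differed from that without an inhibitor by −0.37 (95% interval −0.91 to 0.17), and for Acss3 by −0.23 (95% interval −0.87 to 0.42).

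The levels reached in the presence of SR-3420 were compared between the arms. Acsl1 was at 438, 454 and 538 CPM with TC and SR-3420 and at 1111 and 1324 CPM with SR-3420 alone. The groups were far apart, and Acsl1 fell by 1.35 on the log2 scale (SE 0.23), a 2.56-fold decrease, with an adjusted p of 0.00588 by edgeR; the call held whichever sample was left out. Acss2 was lower with TC and SR-3420 (168 to 183 CPM) than with SR-3420 (291 and 324 CPM), and it fell by 0.81 on the log2 scale (SE 0.17, adjusted p = 0.0186 by edgeR). Acss3 was likewise lower (4.97 to 6.34 CPM against 9.55 and 14.7 CPM), and it fell by 1.05 on the log2 scale (SE 0.21, adjusted p = 0.0147 by edgeR). These 3 of 8 members were lowered and 0 raised, beside 3.55% and 1.02% of all genes. Of 9 brown adipocyte markers tested, 4 were lowered and 0 raised in the same comparison (median log2FC −0.87). Among them were Plin1, Prdm16 and Ppargc1a (log2FC −1.45, −1.34 and −1.295). The part of these markers in the values of the members was not tested.

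The call of Acss2 between these groups was lost without SR-3420 replicate 1 (log2FC −0.73, adjusted p = 0.209 by edgeR) and without TC with SR-3420 replicate 1 or 3 (−0.81, 0.0605 and −0.79, 0.0779), and that of Acss3 without SR-3420 replicate 3 (−0.70, 0.117) or TC with SR-3420 replicate 3 (−0.95, 0.0707); a fit to the compared groups alone lost both (0.0708 for Acss2 and 0.14 for Acss3). Calls among all genes went from 585 to 54 without SR-3420 replicate 1, to between 213 and 401 without 1 of the other samples, and to 78 in the compared groups alone. Acsl3 had a log2FC of 1.07 (95% interval 0.13 to 2.01, adjusted p = 0.197 by edgeR), and Acsf2 of −0.43 (95% interval −0.72 to −0.13, adjusted p = 0.0971 by edgeR, 0.044 by DESeq2). With a replicate block edgeR also called Acsl3 (0.00714), Acsl4 (log2FC 0.94, 0.0396) and Acsf2 (0.0261) here, while its calls among all 12786 genes went from 585 to 3008. Between ETO with SR-3420 and SR-3420 alone 0 of 8 members were called by edgeR, beside 0% of all genes raised and 0.00782% lowered. Acss2 and Acss3 had an unadjusted p under 0.05 there (2 of 8), and DESeq2 called 1 member, Acss2. Acss2, at 135 to 208 CPM with ETO and SR-3420, was below both SR-3420 samples, with a log2FC of −0.76 (95% interval −1.13 to −0.38, adjusted p = 0.213 by edgeR, 0.0227 by DESeq2 and 0.0287 by edgeR with a replicate block). The block took the calls among all 12786 genes in this comparison from 1 to 1838, so the share of all genes printed for it depends on the model. The comparisons share samples, with the vehicle pair and the SR-3420 pair each entering several of them, and are not independent of each other.

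Over the 10 comparisons of the 8 tested members 17 of 80 tests were called, beside 9.09% of the 127860 tests of all genes. Acss3 was called in 5, Acss2 in 4, Acsl1 and Acsbg1 in 3 each and Acsf2 in 2, whereas Acsl3, Acsl4 and Acsl5 were called in 0 by this edgeR fit to all 6 groups without a block; the calls of Acsl3 and Acsl4 under other settings are given above. Acsl5 varied least, with log2FC between −0.35 and 0.25 over the 10 comparisons and levels between 34.7 and 64.3 CPM. For Acsl3, Acsl4 and Acsl5 at an unadjusted p under 0.05 there were only Acsl4 in TC with SR-3420 against TC and Acsl3 in TC with SR-3420 against SR-3420. Among the samples of a group the replicate number went with the level: replicate 3 was the highest in 6 of 6 groups for Acsl1, Acsl3 and Acsl5 and in 5 of 6 for Acsl4, and the lowest in 5 of 6 for Acsbg1. The labels do not say what the numbers stand for.

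**Figure D3:**
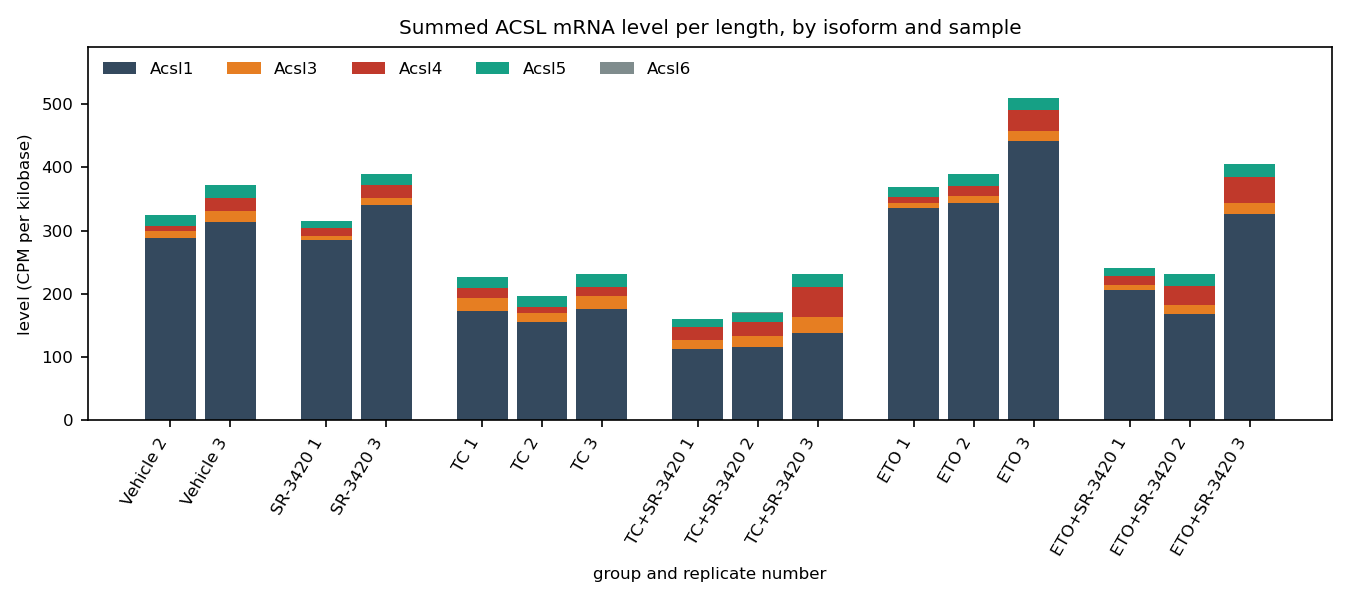
Summed level of the 5 ACSL genes in each sample, in CPM per kilobase, with the part of each gene stacked from 0 and samples named by group and replicate number. Acsl1 makes up most of every bar, and the bars of the 6 samples with triacsin C lie between 160 and 232 CPM per kilobase.

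Because triacsin C and the long-chain synthetases meet at the enzyme, the combined ACSL mRNA pool was also followed per length. Its sum was 324 and 371 CPM per kilobase with vehicle and 315 and 390 with SR-3420. With TC it was 227, 197 and 232 CPM per kilobase, and with TC and SR-3420 160, 171 and 231. With ETO it was 369, 389 and 510 CPM per kilobase, and with ETO and SR-3420 241, 231 and 405. All 6 samples with TC were below all 4 samples without an inhibitor. Acsl1 supplied 86.5% ± 3.16 (SD, n = 2) of the sum with vehicle and 89.0% ± 2.50 (SD, n = 2) with SR-3420. Its part was 77.1% ± 1.89 (SD, n = 3) with TC and 66.2% ± 5.70 (SD, n = 3) with TC and SR-3420. It was 88.7% ± 2.20 (SD, n = 3) with ETO and 79.7% ± 6.74 (SD, n = 3) with ETO and SR-3420. Acsl4 made up 15.7% ± 4.48 (SD, n = 3) of the pool with TC and SR-3420, against 5.95% ± 0.723 (SD, n = 3) with TC. It made up 9.68% ± 3.45 (SD, n = 3) with ETO and SR-3420, against 4.29% ± 1.88 (SD, n = 3) with ETO. Its part was 4.05% ± 1.83 (SD, n = 2) with vehicle and 4.58% ± 1.05 (SD, n = 2) with SR-3420. These shares are a description of mRNA per length and were not tested.

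Markers of other states of the cells moved with SR-3420. The 7 preadipocyte or fibroblast markers, of which Col1a1 was the most abundant and none was at 0 in any sample, summed to 2337 and 2058 CPM with vehicle and to 5203 and 3844 CPM with SR-3420. They summed to 3394, 2948 and 2584 CPM with TC and to 6047, 5112 and 4226 CPM with TC and SR-3420, and to 2891, 2120 and 1438 CPM with ETO and 6244, 4676 and 3228 CPM with ETO and SR-3420. Of the 7, 1 was raised by SR-3420 against vehicle and 4 each in the presence of TC and of ETO, with 0 lowered. Of all genes, 4.75%, 17.3% and 12.5% were raised in these comparisons. The 10 brown adipocyte markers summed to 12110 and 11450 CPM with vehicle and 8653 and 8450 CPM with SR-3420. They summed to 12960, 13570 and 13640 CPM with TC and 4873, 5030 and 5464 CPM with TC and SR-3420, and to 11770, 10990 and 12590 CPM with ETO and 5957, 4702 and 7976 CPM with ETO and SR-3420. This sum is made up mostly of Fabp4, Adipoq and Plin1. Of the 9 brown adipocyte markers tested, SR-3420 raised 0 and lowered 1, Pparg, against vehicle, with a median log2FC of −0.04. It raised 1, Prdm16 (log2FC 0.74), and lowered 4 with TC, and raised 0 and lowered 4 with ETO. The median log2FC of the 9 was −0.43 with TC and −0.46 with ETO. Of all genes, 2.79% were lowered by SR-3420 against vehicle, 19.7% with TC and 12.8% with ETO. The part of either list in the values of the acyl-CoA synthetases was not tested. In these bulk samples fewer cells of a type and less RNA per cell cannot be told apart.

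**Figure D4:**
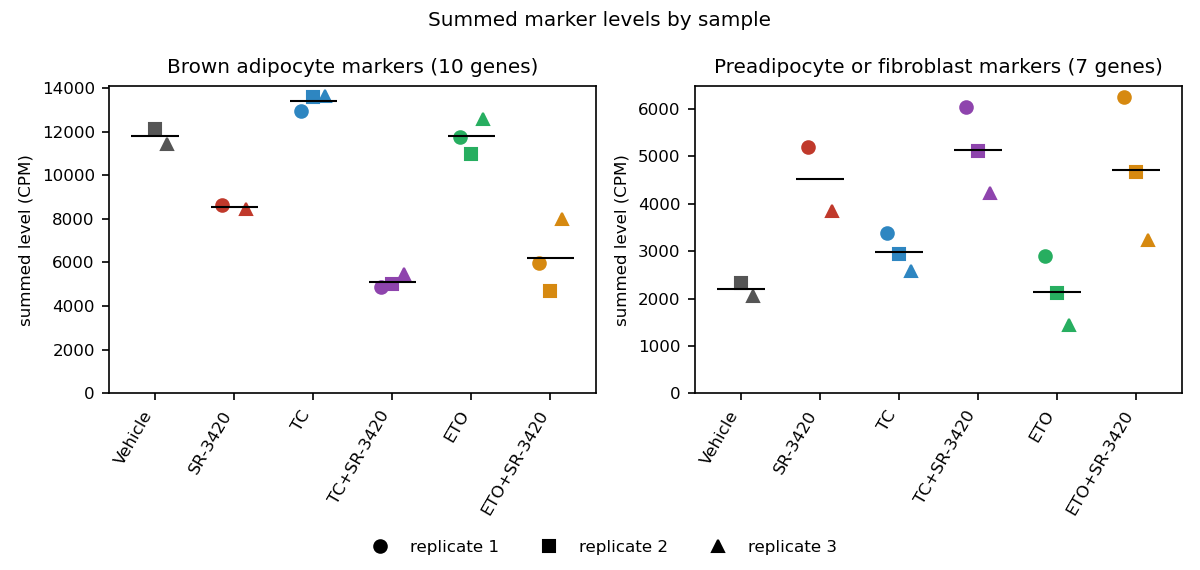
Summed level of 10 brown adipocyte markers and 7 preadipocyte or fibroblast markers in each of the 16 samples, in CPM on linear axes from 0; each point is 1 sample, its shape gives the replicate number and lines are group means. In every arm the samples with SR-3420 lie below those without it for the brown adipocyte sum and above them for the preadipocyte or fibroblast sum.

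Triacsin C alone, under which Acsl1 and Acss3 fell, left the brown adipocyte sum at 12960 to 13640 CPM, not below vehicle. Of the 10 markers in it, 9 were tested. TC lowered 3 and raised 0 of these, beside 6.94% and 4.77% of all genes. The 3 were Prdm16 (log2FC −2.14), a regulator of brown fat identity, Pparg (log2FC −1.48, SE 0.19, adjusted p = 0.000182 by edgeR), the nuclear receptor that directs adipocyte differentiation, and Ppargc1a (log2FC −1.04, SE 0.26, adjusted p = 0.0196 by edgeR), a coactivator of mitochondrial genes. The 5 macrophage markers summed to 16.3, 18.0 and 17.1 CPM with TC against 6.87 and 3.97 CPM with vehicle; Cd68, the most abundant, was raised by TC (log2FC 1.92, adjusted p = 0.000366 by edgeR), and Emr1, Ptprc and Itgam were at 0 in some samples. The 4 endothelial markers (most abundant Kdr) summed to at most 3.58 CPM, with Pecam1, Cdh5 and Tek at 0 in some samples, and the 5 muscle markers (most abundant Acta1) to at most 12.5 CPM, with Myog, Ckm and Myh4 at 0 in some. Kdr was raised by SR-3420 with TC (log2FC 0.96, adjusted p = 0.0246 by edgeR) and with ETO (log2FC 1.29, adjusted p = 0.00681 by edgeR), and Cd68 was lowered by SR-3420 with TC (log2FC −1.29, adjusted p = 0.000651 by edgeR). Csf1r, the only other macrophage marker tested, was not called for TC against vehicle (log2FC 0.50, adjusted p = 0.558 by edgeR). It was not called for SR-3420 with TC either (log2FC 0.50, adjusted p = 0.295 by edgeR). Among all genes SR-3420 raised 17.3% and lowered 19.7% with TC, and raised 12.5% with ETO. The part of these markers in the results for the members was not tested.

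The members were set beside their neighbours in FA metabolism. The list counts below are to be read beside the shares of all genes: SR-3420 raised 4.75% and lowered 2.79% without an inhibitor, 17.3% and 19.7% with TC, and 12.5% and 12.8% with ETO, and TC alone raised 4.77% and lowered 6.94%. Of 15 other genes of the acyl-CoA synthetase superfamily 8 were tested, and 0 were called for SR-3420, TC or ETO against vehicle. With TC, SR-3420 lowered 5 and raised 0 of them, and with ETO it lowered 4 and raised 0. These counts are not shown to differ between the arms, since 0 of the 8 were called in any test of the difference of responses (edgeR). Under SR-3420 alone Acsm3 and Acsm5 had log2FC of −1.41 and −1.17 (adjusted p = 0.0601 and 0.0622 by edgeR). In the presence of either inhibitor the largest called decrease by SR-3420 was in Acsm5, a medium-chain synthetase. Its log2FC was −2.50 with TC (SE 0.32, adjusted p = 6.97e-05 by edgeR) and −1.73 with ETO (SE 0.29, adjusted p = 0.000856 by edgeR). The median log2FC of the 8 was −0.99 with TC and −0.72 with ETO, against −0.34 and −0.38 for the 8 members and 0.02 and 0.01 for all genes. Under SR-3420 alone the order was the other way, at −0.29 for these 8 and −0.41 for the 8 members. Glycerolipid acyltransferases use the acyl-CoA made by long-chain synthetases. Of 9 tested, 5 were lowered by SR-3420 with TC and 2 with ETO and 1 without an inhibitor, with 0 raised. Gpam, which starts glycerolipid synthesis, was lowered in each (log2FC −1.12, −1.37 and −0.85) and by TC alone (log2FC −1.07). All 10 genes of cytosolic acetyl-CoA and fatty acid synthesis, the pathway that uses the acetyl-CoA made by ACSS2, were tested. In the tests of the difference of responses 0 genes of the acyltransferase, fatty acid synthesis and sterol-regulated lists were called. Of the 10, 2 were lowered by SR-3420 alone, 6 with TC and 4 with ETO, and 0 raised; Acaca, the acetyl-CoA carboxylase, was lowered by TC alone (log2FC −1.31, SE 0.13, adjusted p = 3.64e-05 by edgeR).

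Acss2 is a known target of the SREBP factors, and of 11 tested sterol-regulated genes 3 were lowered by SR-3420 alone and 5 each with TC and with ETO; TC alone lowered 1, Fdft1 (log2FC −0.50). Acsl1 is a known PPAR target. Among the 17 PPAR targets listed, 4 were raised and 1 lowered by SR-3420 alone, and 3 were raised and 0 lowered by TC alone. In the presence of TC SR-3420 raised 3 and lowered 10, and in the presence of ETO it raised 3 and lowered 6; the 3 of 17 raised are near the share of all genes raised with TC (17.3%) and not far from that with ETO (12.5%). The response was lower with TC than without an inhibitor for 6 of the 17 in the test of the difference, and differed with ETO for 0 of them (edgeR), beside 2.51% and 0% of all genes called in either direction. Pdk4, an inhibitor of pyruvate oxidation, rose by 2.25 and Angptl4 by 2.10 on the log2 scale under SR-3420 alone, and by 1.16 and 1.498 under TC alone, the comparison in which Acsl1 fell. Of 13 tested genes for acyl-CoA binding or hydrolysis, TC alone raised 3 (Acot4, Acot2 and Acot1, log2FC 1.34, 1.09 and 1.17) and lowered 0. SR-3420 raised 1 and lowered 1 of them alone, raised 1 and lowered 6 with TC, and raised 1 and lowered 4 with ETO, and the 1 of 13 raised is near or below the share of all genes raised in each. Of the 5 genes of mitochondrial import, Cpt1a was raised by SR-3420 alone (log2FC 1.09), and 3 were lowered with TC and 1 with ETO, Cpt2 in both (log2FC −1.93 and −1.31). The response of import genes was lower with TC than without an inhibitor for 2 of the 5, Cpt2 and Cpt1b (−1.37 and −1.30), and differed with ETO for 0, beside the same shares of all genes. For the acyl-CoA binding and hydrolysis list this was 1 of the 13, Acot4, with TC and 0 with ETO. In ETO against vehicle 0 genes of any list were called by edgeR. In TC with SR-3420 against SR-3420, 5 of 9 acyltransferases and 5 of 17 PPAR targets were lowered and 0 raised. Of all genes 3.55% were lowered and 1.02% raised there. Each of the other lists had at most 2 genes lowered and at most 1 raised in that comparison.

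For each tested member the genes with the most similar group means were found among 10726 genes, by the root mean square difference of centred log2 levels over the 6 groups. For Acsl1 these were Lama4, Tspan12 and Lrrc8d (0.13, 0.15 and 0.15 on the log2 scale, where Acsl1 itself spanned 1.60). For Acss3, which spanned 2.13, they were Epas1, Trim67 and Tppp (0.06, 0.09 and 0.09), and for Acss2, which spanned 1.55, Igfbp4, Emc9 and Cers4 (0.06, 0.08 and 0.08). For Acsf2, spanning 0.90, they were Gfm2, Acad9 and Tmem106c (0.02, 0.03 and 0.04). For Acsbg1, spanning 2.15, they were Ier2, Nmnat2 and Emp2 (0.11, 0.11 and 0.13). The genes closest to Acsl4, which spanned 1.13, were Lin54, Spata5 and Tex30 (0.05, 0.06 and 0.07). Those closest to Acsl5, which spanned only 0.39, were Mrpl3, Chmp3 and Wtap (0.02, 0.04 and 0.04). A gene with so small a span lies near any gene that varies little, so these distances do not show a shared response. For Acsl3, which spanned 1.14, the closest was Utp14b (0.08), the gene with which it shares its start and may share reads. Nr2c2ap and Rpl39 followed (0.17 and 0.18). Among the members themselves Acsf2 and Acss2 (0.27), Acsf2 and Acsl5 (0.28) and Acss2 and Acss3 (0.28) were the closest pairs, and Acsbg1 and Acss3 (1.54) the most distant.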

How the data were processed

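The authors used STAR 2.4.2a for alignment to mm9, HOMER to thin reads that shared both start and length to 1, and iRNA-seq for counting, and deposited whole-number counts of 20295 genes. Removing reads at the same position can cap the counts of short, abundant genes. The 16 samples were grouped by their treatment labels. Counts were fitted in edgeR 4.0.16 (R 4.3.3; TMM, filterByExpr, quasi-likelihood test, 6 group means, no covariate), adjusted by Benjamini-Hochberg over 12786 genes and called at an adjusted p under 0.05. Levels per length divide CPM by the counted length. Likeness used a pseudocount of 0.5 CPM and genes with a mean of at least 50. Alternatives were DESeq2 1.42.0, other scalings and filters, fits to the compared groups, a replicate block and leaving out each sample. Scripts were tested on simulated data. Members and gene lists were chosen with earlier results of these data known; all 10 members, and at most 3 called genes a list and comparison, were eligible to be named. Sequences are from RefSeq (GRCm38.p6); exon counts are from the NCBIM37 annotation. Figures used matplotlib 3.10.9 in Python 3.11.15.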

Additional observations from a re-analysis of the deposited data

How the results depend on the processing

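The directions of the 17 called values of single members held in 210 of 210 refits, and in 33 of these the call was lost. Among the 63 values not called, 18 of 894 refits made a call and 64 turned the direction, at log2FC of at most 0.55 in size and with no adjusted p under 0.66; the cause was not tested. Of the called members' counts, a fit to only the compared groups, with fewer samples, gave 0 for SR-3420 against vehicle and 1 for TC with SR-3420 against SR-3420, and DESeq2 gave 1 for ETO with SR-3420 against SR-3420. Leaving out 1 sample gave 0 to 2 members for SR-3420 against vehicle, 0 to 1 for triacsin C against vehicle and 1 to 3 for TC with SR-3420 against SR-3420. The replicate numbers were not taken as pairs, because the labels do not say what they stand for. The correlation of deviations was over 0.1 in 27 of 35 same-number pairs (−0.27 to 0.80, median 0.47). Pairs of different numbers had a median of −0.26, and 11 of 16 samples correlated best with their own number. Samples of the same number thus tended to deviate alike. Vehicle has replicates 2 and 3 and SR-3420 has 1 and 3, so number and treatment are partly mixed in that comparison. With a replicate block 6 members were called for TC with SR-3420 against SR-3420 (3 without it), 1 for ETO with SR-3420 against SR-3420 (0), 6 for TC with SR-3420 against TC (4), 3 for triacsin C (2) and 4 for SR-3420 against vehicle (3). The block gave 5 for ETO with SR-3420 against ETO and 0 for ETO against vehicle and for the differences of responses, as without it. Calls among all 12786 genes rose with the block too, from 585 to 3008, 1 to 1838, 4722 to 7185, 1497 to 3072 and 964 to 2438 in the first 5 of these comparisons, 3234 to 5776 and 3 to 6 in the ETO comparisons named last, and 321 to 1669, 0 to 3 and 293 to 1055 for the differences of responses (TC and ETO against no inhibitor, TC against ETO).

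Turned directions, all of values not called, were these log2FC. Library size alone gave −0.052 for Acsl1 with SR-3420, −0.070 and −0.042 for Acsl5 and Acsf2 with TC, and 0.045 and 0.00076 for Acsl5 and Acsf2 with ETO. DESeq2 size factors gave −0.0093 and 0.0014 for Acsl5 with TC and ETO, and the DESeq2 test −0.011 and 0.00093. No filter gave −0.066 and −0.040 for Acsl5 and Acsf2 with TC, 0.020 for Acsl5 with ETO and 0.024 for Acsl3 in TC with SR-3420 against TC. The compared groups alone gave −0.049 and −0.024 for Acsl5 and Acsf2 with TC and 0.011 for Acsl5 with ETO. The replicate block gave 0.22 for Acsl4 with TC, 0.13 for Acsl5 with ETO and −0.014 for Acsl5 in the difference of SR-3420 responses between TC and no inhibitor.

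Leaving out 1 sample gave these ranges. For SR-3420: Acsl1 −0.071 to 0.18, Acsl4 −0.28 to 0.88. For TC: Acsl4 −0.61 to 0.55, Acsl5 −0.14 to 0.17, Acsf2 −0.066 to 0.14. For ETO: Acsl3 −0.66 to 0.063, Acsl4 −0.21 to 1.096, Acsl5 −0.15 to 0.16, Acsbg1 −0.011 to 0.58, Acsf2 −0.15 to 0.052. For SR-3420 with TC: Acsl3 −0.30 to 0.12. For SR-3420 with ETO: Acsl3 −0.10 to 0.46, Acsl5 −0.21 to 0.093. Against SR-3420, TC with SR-3420 gave Acsl5 −0.16 to 0.50, and ETO with SR-3420 gave Acsl5 −0.044 to 0.62 and Acsbg1 −0.11 to 0.32. For the difference of responses, TC against no inhibitor: Acsl5 −0.17 to 0.49, Acss3 −0.50 to 0.12. ETO against no inhibitor: Acsl4 −0.30 to 1.01, Acsl5 −0.041 to 0.62, Acsbg1 −0.49 to 0.10, Acss3 −0.61 to 0.012. TC against ETO: Acsl3 −0.49 to 0.069, Acsl5 −0.35 to 0.022, Acss3 −0.023 to 0.23. Per coding length the levels of 7 of 10 members moved by more than 1 SD, and the plain total moved none. Depth limits Acsl6 and Acss1, which had 57 and 54 counts over the 16 samples.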
